A study of Mus musculus with 12 samples.

Results

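The reference genes commonly used for qRT-PCR are transcripts whose level is taken as constant, so that a measured gene can be expressed relative to them. Here 8 of them were described in RNA-seq data of mouse colonic epithelial cells: Hprt, Gapdh, Actb, Tbp, Ppia, Ywhaz, Polr2a and Tubb5. The members were chosen by gene symbol, and all 8 were found among the 47632 genes of each of the 3 deposited tables. Hprt was singled out from earlier results of these data as a gene whose level was not constant, so the levels below are descriptions and none was tested. The question was which of the others stayed closer to 1 level where Hprt did not.

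The animals (strain given as C57/BL6) were Tfeb flox/flox, the controls, labelled WT, and Tfeb ΔIEC, labelled KO, in which Cre recombinase driven by the villin promoter deletes the floxed Tfeb gene in intestinal epithelial cells. They are called controls and ΔIEC mice in what follows. Controls carry the floxed alleles too. Cells were taken from the colon with EDTA on Day 0 (untreated), on Day 4, during treatment with dextran sulfate sodium (DSS), and on Day 11, after DSS had been replaced by plain water for several days of recovery. DSS is a detergent-like polymer given in the drinking water that injures the colonic epithelium. The labels give a concentration of 2.5%, and the methods of the study a slightly lower one. Each of the 6 groups held 2 animals, 12 in all, aged 10 and 12 weeks on Day 0, 12 weeks on Day 4 and 10 weeks on Day 11, with 900000 to 3200000 cells per sample. The deposited value is 1 FPKM (mapped fragments, scaled for the length of the transcript and the depth of the library) per gene, genotype and day, made from both animals, so no value has an error. The authors' own tests of these differences were not used. In such bulk samples fewer cells of a type and less RNA per cell cannot be told apart.

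Reference genes are drawn from different basic functions so that they are not all controlled together. Hprt (hypoxanthine phosphoribosyltransferase) returns free purine bases to the nucleotide pool, and Gapdh (glyceraldehyde-3-phosphate dehydrogenase) carries out a step of glycolysis. Actb (β-actin) and Tubb5 (a β-tubulin) are the subunits of microfilaments and microtubules. Tbp (TATA-binding protein) positions the transcription machinery at promoters, and Polr2a is the largest subunit of RNA polymerase II. Ppia (cyclophilin A) speeds the folding of proteins at proline bonds, and Ywhaz is an adaptor that binds phosphorylated proteins. In the colon they are read in an epithelium that is renewed from crypts and rebuilt after injury.

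The study expressed its own qRT-PCR measurements relative to Hprt or Gapdh, so the promoter windows of both are shown, with that of Tubb5 as the single one of the 6 matched windows that holds CACGTG, the core of the element that TFEB binds. The windows are those of RefSeq on GRCm38.p6 and run from 250 bases before to 50 after the annotated start, 5′ to 3′ on the strand of the gene. RefSeq windows were matched for 6 of the 8 genes. The Hprt window is chrX:52987828-52988127 on the plus strand, that of Gapdh chr6:125165724-125166023 on the minus strand and that of Tubb5 chr17:35838252-35838551 on the minus strand. Capitals mark TATAAA (the TATA box), GGGCGG (the GC box) and CACGTG, each searched on both strands, so that CCGCCC is a GC box of the other strand.
Hprt: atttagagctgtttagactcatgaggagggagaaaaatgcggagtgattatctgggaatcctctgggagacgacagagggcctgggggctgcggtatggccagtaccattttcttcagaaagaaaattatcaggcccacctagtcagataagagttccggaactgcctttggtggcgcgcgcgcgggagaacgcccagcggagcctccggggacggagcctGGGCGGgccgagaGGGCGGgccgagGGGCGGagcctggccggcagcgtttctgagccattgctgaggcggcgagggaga
Gapdh: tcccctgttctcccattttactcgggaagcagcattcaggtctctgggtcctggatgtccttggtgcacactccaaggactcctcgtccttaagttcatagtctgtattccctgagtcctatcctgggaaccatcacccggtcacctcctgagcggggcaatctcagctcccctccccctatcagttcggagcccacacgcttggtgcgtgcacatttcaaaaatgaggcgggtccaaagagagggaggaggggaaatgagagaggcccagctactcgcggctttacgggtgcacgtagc
Tubb5: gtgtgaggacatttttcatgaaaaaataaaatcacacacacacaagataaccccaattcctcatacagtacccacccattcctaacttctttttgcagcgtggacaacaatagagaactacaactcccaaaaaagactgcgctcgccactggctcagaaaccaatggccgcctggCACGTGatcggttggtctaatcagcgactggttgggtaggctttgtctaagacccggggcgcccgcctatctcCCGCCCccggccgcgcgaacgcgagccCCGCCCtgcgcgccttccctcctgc
The Hprt window held 3 GC boxes, no TATA box and no CACGTG, and had 22 CpG dinucleotides. The Gapdh window held none of the 3 motifs and had 12 CpG. Tubb5 had 2 GC boxes and 1 CACGTG. Among all 32851 promoter windows of the table, 35.7% held GGGCGG, 13.6% TATAAA and 7.15% CACGTG. Of the remaining windows, Ppia had 4 GC boxes and a TATA box, Polr2a 3 GC boxes and a TATA box, and Tbp 1 GC box. A match is a description of these letters only.

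Before the values are compared, some facts of the whole series bear on all of them. The FPKM values of a genotype and day summed to between 820199 and 1471776. On Day 0 the sums were 974832 and 973878 in controls and ΔIEC mice, but the control sum was 1.78 times that of ΔIEC mice on Days 4 and 11. Each table was scaled on its own, so levels of different days are set side by side only as deposited. Within a genotype, Days 4 and 11 gave much alike values. Over the 15 member values above 0, they differed by between 0.108% and 33.0%, with a median of 3.04% and 13 under 10%. The 2 days are therefore not read as independent observations. Genes with a value above 0 numbered 13018 in controls and 13187 in ΔIEC mice on Day 0. They numbered 11773 and 12848 on Day 4, and 11767 and 12859 on Day 11. The number of reads behind a value is unknown.

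Defining epithelial markers were high in all 6 groups, with a summed FPKM of 7446 to 13359 over 8 genes such as Epcam and Krt8. On Day 4, 3 of these 8 were at least 2-fold higher in ΔIEC mice (Krt20, Vil1 and Cdh1) and the other 5 under 2-fold apart. Of all genes that reached an FPKM of 1 that day, 25.6% were higher and 26.1% lower by this limit. With the values of each group divided by their sum, the shares were 40.5% and 15.2%. The 8 stromal markers summed to between 0.598 and 2.93, and Col1a2, Pdgfra and Des were listed at 0 throughout. The rows of 12 immune markers summed to between 6.25 and 21.0, and Cd68 and S100a9 were at 0 throughout. The immune sum was 11.3 in controls and 8.28 in ΔIEC mice on Day 0, 6.36 and 18.5 on Day 4, and 6.25 and 21.0 on Day 11. Only 5 of the immune genes reached an FPKM of 1 on Day 4. Of these, 3 were at least 2-fold higher in ΔIEC mice (25.6% of all genes), 0 lower (26.1% of all genes) and 2 under 2-fold apart. Among them Cd14 had 1.46 in controls and 9.11 in ΔIEC mice, and Lyz2 2.88 and 1.77. The 5 goblet cell markers in the tables summed to 76916 in controls and 16187 in ΔIEC mice on Day 4, and the 6 colonocyte markers to 58289 and 36306. A few abundant genes carry these sums, and the members did not move one way. On Day 4, 51.7% of 9370 genes were at least 2-fold apart in either direction. Of the goblet genes, Tff3, Zg16 and Agr2 were then at least 2-fold lower in ΔIEC mice and Muc2 and Clca1 at least 2-fold higher. Of the colonocyte genes, Guca2a was lower, Slc26a3 and Aqp8 higher and the other 3 under 2-fold apart. Day 11 gave the same counts. The part of these markers in the differences between the reference genes was not tested.

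Hprt (ENSMUSG00000025630.8, chromosome X, 52988137 to 53021659, plus strand) had an FPKM of 78.5 in controls and 142 in ΔIEC mice on Day 0. On Day 4 the values were 8.63 and 139, and on Day 11 they were 8.26 and 136. All 3 values of ΔIEC mice lay above all 3 of controls, and the low values were those of controls on Days 4 and 11. Between genotypes, Hprt was 1.81-fold higher in ΔIEC mice on Day 0, 16.1-fold on Day 4 and 16.5-fold on Day 11. Between days, it was 9.09-fold lower on Day 4 than on Day 0 in controls, as deposited, whereas in ΔIEC mice the 2 values differed by a factor of 1.02, slightly lower on Day 4 as deposited and slightly higher after division by the column sum, centring or a correction for length. No other annotated gene shares a 50-base sequence with Hprt, and none overlaps its exons.

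Gapdh (ENSMUSG00000057666.18, chromosome 6, 125161715 to 125166467, minus strand) had 113 in controls and 102 in ΔIEC mice on Day 0, 132 and 116 on Day 4, and 134 and 108 on Day 11. Its 6 values lay within a factor of 1.31, a range of 0.39 on the log2(FPKM + 1) scale that became 0.64 after division by the column sum and 0.69 after centring on the median of all genes. They were 1.11-fold, 1.14-fold and 1.24-fold higher in controls on the 3 days as deposited, and on Days 4 and 11 lower in them when each column was divided by its sum. Of all 50-base sequences of Gapdh transcripts, 74.9% are in no other gene. There are 31 genes that hold at least 10% of them, 29 of these in the tables, so reads could have been split among them. These 29 summed to an FPKM of 70.8 and 44.9 on Day 0, 105 and 84.7 on Day 4, and 108 and 88.2 on Day 11, in controls and ΔIEC mice. With them added, the 6 values of Gapdh lay within a factor of 1.64 in place of 1.31.

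Actb (ENSMUSG00000029580.14, chromosome 5, 142903115 to 142906754, minus strand) was the most abundant of the 8 per unit length, with 4805 in controls and 3358 in ΔIEC mice on Day 0. The values were 5571 and 4973 on Day 4, and 5640 and 5100 on Day 11. The lowest value was that of ΔIEC mice on Day 0, and the 6 lay within a factor of 1.68. Actb was 1.43-fold higher in controls on Day 0, and 1.12-fold and 1.11-fold higher on Days 4 and 11 as deposited, a direction that turned on those 2 days after division by the column sum.

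Tubb5 (ENSMUSG00000001525.10, chromosome 17, 35833921 to 35838306, minus strand) had 65.7 in controls and 70.2 in ΔIEC mice on Day 0, a ratio of 1.07 that turned to lower in ΔIEC mice after a correction for length. The values were 13.1 and 28.3 on Day 4, and 14.1 and 32.4 on Day 11. Both genotypes were thus lower after Day 0, with log2 differences between Days 0 and 4 of -2.24 in controls and -1.28 in ΔIEC mice, and ΔIEC mice were 2.16-fold higher on Day 4 and 2.29-fold on Day 11. The median transcript of Tubb5 has 2649 nt, and genes of like length had a median log2 difference of 0.74 on Day 4. After the medians were subtracted, the log2 difference of Tubb5 was 0.31 on Day 4 and 0.40 on Day 11, under the 2-fold threshold.

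The genes of the transcription machinery were the lowest of the 8. Tbp (ENSMUSG00000014767.16, chromosome 17, 15499888 to 15528379, plus strand) had 1.17 in controls and 1.79 in ΔIEC mice on Day 0. In controls it had 4.82 on Day 4 and 4.53 on Day 11, and in ΔIEC mice it was listed at 0 on both days, so that no fold is given. Read counts are not given, and why Tbp was listed at 0 was not tested. Its estimate was not among those marked as failed. Polr2k, an RNA polymerase II subunit, was also listed at 0 in all 6 columns, and the glycolytic Pgam1 in controls on Days 4 and 11. Both were picked after their values were seen. The level was 4.13-fold higher on Day 4 than on Day 0 in controls. Pdcd2, on the opposite strand, overlaps 19.0% of the exonic bases of Tbp, so that reads of the 2 genes may not be told apart there. Pdcd2 had 10.2 in controls and 5.87 in ΔIEC mice on Day 4.

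Polr2a (ENSMUSG00000005198.15, chromosome 11, 69733997 to 69758637, minus strand) had 2.09 in controls and 6.05 in ΔIEC mice on Day 0, a 2.90-fold difference and the single one of the 8 past 2-fold on that day. The values were 0.903 and 0.620 on Day 4, and 1.20 and 0.639 on Day 11. In ΔIEC mice the level was 9.76-fold lower on Day 4 than on Day 0, the largest change between these days in that genotype among the 7 genes above 0. Polr2a was also the member that differed most between Days 4 and 11, by 33.0% in controls. Its transcripts are the longest of the 8, with a median of 6269.5 nt, and genes of like length had a median log2 difference of 0.40 on Day 0. After subtraction of that median the difference of Polr2a was 0.79, under the threshold.

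Ppia (ENSMUSG00000071866.11, chromosome 11, 6415443 to 6419817, plus strand) had 666 in controls and 427 in ΔIEC mice on Day 0, 1178 and 339 on Day 4, and 1211 and 370 on Day 11. The controls were higher on every day, by 1.56-fold, 3.47-fold and 3.27-fold. Their level was 1.77-fold higher on Day 4 than on Day 0, and that of ΔIEC mice 1.26-fold lower. When each column was divided by its sum, the Day 4 log2 difference of Ppia was -0.96 in place of -1.79 and its range over the 6 values 0.99 in place of 1.83.

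Ywhaz (ENSMUSG00000022285.16, chromosome 15, 36770770 to 36796929, minus strand) had 17.6 in controls and 15.6 in ΔIEC mice on Day 0. The values were 9.10 and 34.8 on Day 4, and 9.09 and 35.0 on Day 11. The genotypes were within a factor of 1.13 on Day 0 and 3.83-fold and 3.85-fold apart on Days 4 and 11, with ΔIEC mice higher. Ywhaz moved in opposite directions between Days 0 and 4, 1.93-fold lower in controls and 2.23-fold higher in ΔIEC mice. A processed pseudogene, Gm4202 (chromosome 3, 92689426 to 92690158), holds 15.1% of its 50-base sequences and was listed far above it, with 264 in controls and 323 in ΔIEC mice on Day 0, 74.9 and 490 on Day 4, and 76.9 and 552 on Day 11. Reads of Ywhaz and Gm4202 may have been split, so the level of Ywhaz is uncertain. Summed as deposited, they differed by 0.26 on the log2 scale on Day 0, with ΔIEC mice higher, and by 2.63 on Day 4. The range over the 6 values was then 2.79 in place of 1.83. Most of each sum was that of the shorter Gm4202, so it is no corrected level of Ywhaz.

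**Figure D1:**
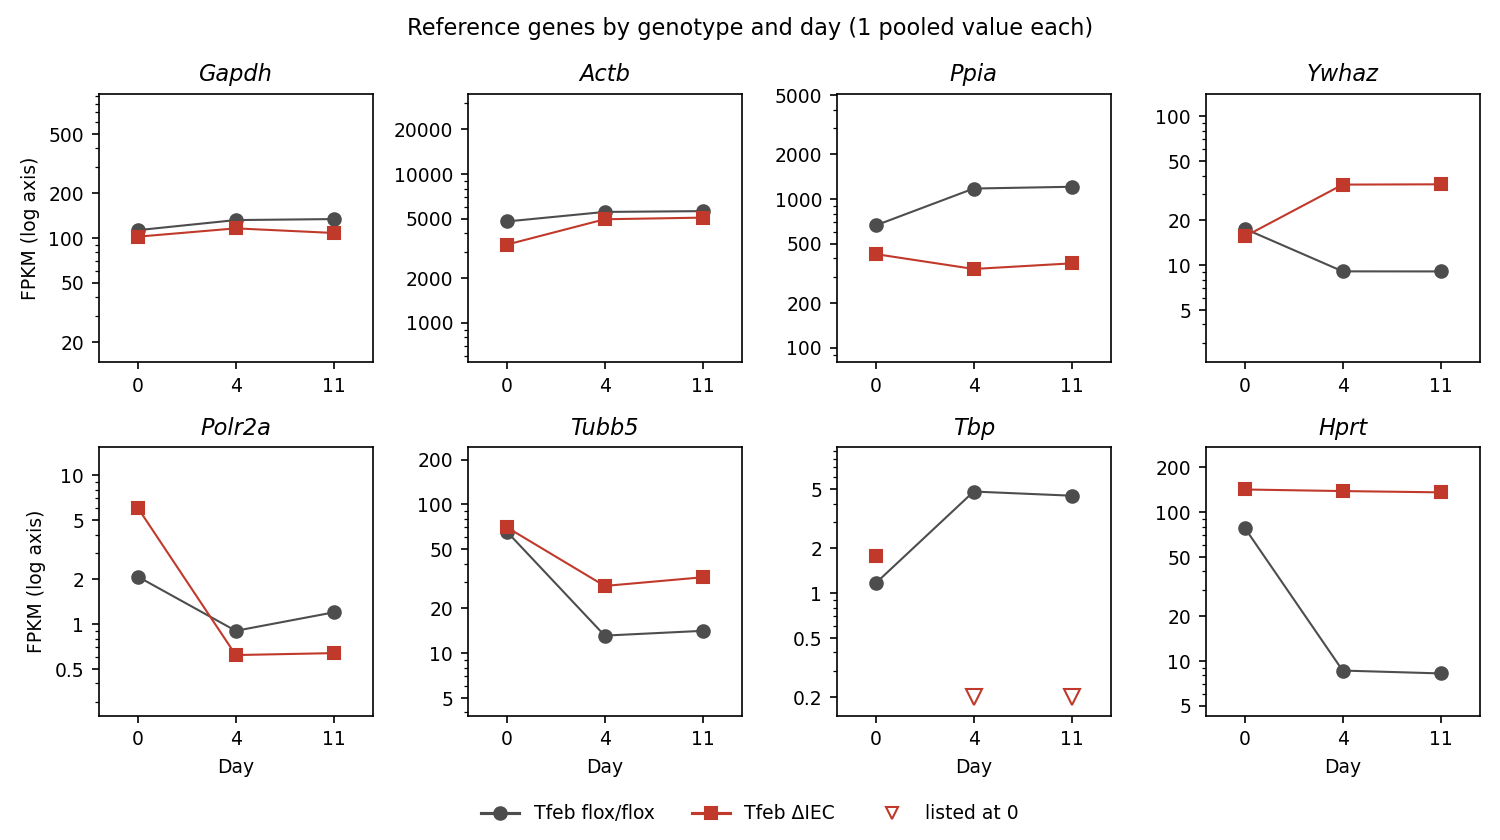
FPKM of each reference gene (log axes, each spanning the same fold) on Days 0, 4 and 11 in controls (circles) and ΔIEC mice (squares), 1 pooled value of 2 animals each with no error bar; triangles mark values listed at 0, which have no place on a log axis. Gapdh lies within a factor of 1.31, while Hprt in controls goes from 78.5 to 8.63 and 8.26.

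Genotypes were then compared across all genes, counting a gene where log2(FPKM + 1) differed by at least 1, a 2-fold difference, among genes that reached an FPKM of 1 in 1 or both genotypes. The pseudocount of 1 FPKM understates differences of low genes. On Day 0, 1 of 8 reference genes was past it, Polr2a, higher in ΔIEC mice, against 29.6% of 9992 genes. On Day 4, 7 reference genes passed the filter, and 3 were higher in ΔIEC mice (Hprt, Ywhaz, Tubb5) and 2 lower (Ppia and, from its value listed at 0, Tbp), against 51.7% of 9370 genes. Of those genes, 25.6% were higher and 26.1% lower, and the median log2 difference was 0.06. On Day 11, the count was again 3 higher and 2 lower of 8, against 51.8% of 9364 genes. The members were chosen with these results known, and nothing is read from how their counts compare with those of all genes.

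After division of each column by its sum, 40.5% of all genes were higher and 15.2% lower on Day 4, and the median of all genes moved from 0.06 to 0.66. On Day 11 the shares were 40.9% and 14.9% and the median 0.68. Among the reference genes, 3 were then higher and 1 lower on either day. Hprt stayed past the threshold on Day 4 under every alternative run, with a log2 difference between 3.40 and 4.62. Genes of the length of Hprt (1289 nt) had a median log2 difference of -0.10 on Day 4, against 3.86 for Hprt itself. For Gapdh (1273 nt), the median at its length was -0.08 and its own value -0.18.

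**Figure D2:**
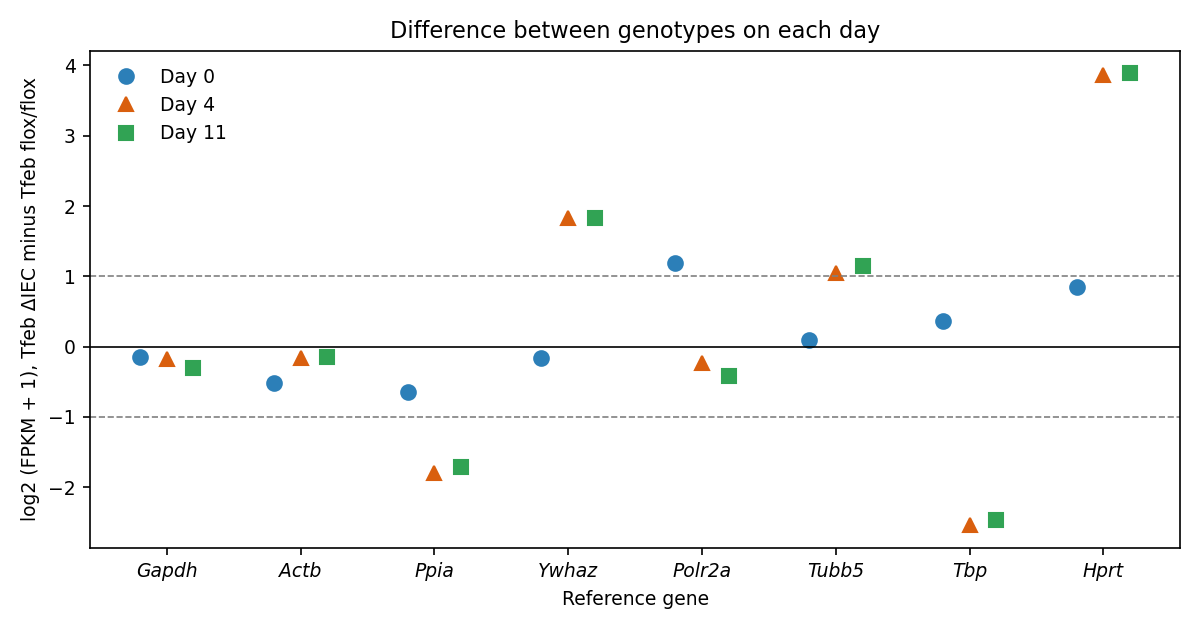
Difference in log2(FPKM + 1), ΔIEC minus control, for each reference gene on Day 0 (circles), Day 4 (triangles) and Day 11 (squares), with dashed lines at a 2-fold difference. Hprt is at 0.85 on Day 0 and at 3.86 and 3.89 on Days 4 and 11, whereas Gapdh and Actb stay between -0.52 and 0 as deposited; on Days 4 and 11 both turn positive after division by the column sum.

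Between Days 0 and 4, 3 of 8 reference genes were at least 2-fold apart in controls, Tbp higher and Hprt and Tubb5 lower on Day 4, against 43.2% of 9616 genes. In ΔIEC mice 4 were, Ywhaz higher and Tbp, Polr2a and Tubb5 lower, against 24.9% of 9616 genes. The median of all genes was -0.20 in either genotype, with 17.5% of genes higher and 25.7% lower on Day 4 in controls and 9.26% and 15.6% in ΔIEC mice. After division by the column sum these shares were 9.37% and 35.9%, and 12.2% and 12.7%, and the medians -0.62 and -0.01, and in controls 0 reference genes were then higher and 3 lower. These counts set levels of separately scaled tables side by side.

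The range of a gene, its highest minus its lowest log2(FPKM + 1) over the 6 values, ordered the members as Gapdh (0.39), Actb (0.75), Ppia (1.83), Ywhaz (1.83), Polr2a (2.12), Tubb5 (2.33), Tbp (2.54) and Hprt (3.95). With 1 value per genotype and day, there is no spread by which neighbours such as Ppia and Ywhaz could be separated. The sum of Ywhaz and its near copy, mostly the copy, had a range of 2.79, past that of Tbp. Gapdh summed with its near copies, at 0.71, stayed first. Of 8615 genes with a mean FPKM of at least 1, 76.2% had a range of at least 1, as had 6 of the 8 reference genes. The median range of all these genes was 1.57. A smaller range than that of Gapdh was seen in 2.23% of them, than that of Actb in 12.7% and than that of Hprt in 96.0%. Gapdh and Actb had the 2 smallest ranges of the 8 under every alternative run, in that order except with Days 4 and 11 alone, where Actb had 0.18 and Gapdh 0.31. Hprt had the largest, except with a pseudocount of 0.1 FPKM, where Tbp had 5.62 and Hprt 4.09.

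To put the members beside other transcripts in use as references, 36 further genes were listed, and 25 of them had a mean FPKM of at least 10. With the 6 members of that level this gave 31 genes. As deposited, the 5 other genes with the smallest range were Cyc1 (0.20), Rer1 (0.30), Gpi1 (0.91), Pgk1 (1.08) and Rplp0 (1.12). Cyc1, the cytochrome c1 subunit of respiratory complex III, had 826 in controls and 766 in ΔIEC mice on Day 0, 719 and 742 on Day 4, and 731 and 786 on Day 11. Rer1, which retrieves membrane proteins to the endoplasmic reticulum, kept its 6 values within a factor of 1.24. Gpi1 and Pgk1 act in glycolysis, as Gapdh does, and Rplp0 is a ribosomal stalk protein.

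The 3 other genes with the largest range were Eef2 (4.37), Rps29 (4.19) and Sdha (3.63). Eef2, a translation elongation factor, had 49.9 in controls and 741 in ΔIEC mice on Day 4. Rps29, a protein of the small ribosomal subunit with a transcript of only 390 nt, went the other way, with 1797 and 110. Sdha is the flavoprotein subunit of succinate dehydrogenase. Gapdh and Actb held places 3 and 4 of the 31 by range as deposited, and Hprt held place 29. After division by the column sum, a setting added after the values were seen, the order at the top turned. Ppib, another cyclophilin, then came at place 1 with a range of 0.46 and Gapdh at place 2 with 0.64. Rplp0 held place 3 with 0.67 and Actb place 4 with 0.84, while Cyc1 had 0.95 and Rer1 1.08. Gpi1 and Pgk1 fell to places 16 and 17, with 1.74 and 1.78. Centred on the median, Gapdh held place 3 and Actb place 5, and after the length correction places 3 and 9, behind Cyc1 and Rer1 in both. Hprt held places 29 to 31 in these settings, whereas Rps29 came to place 24 with a range of 2.16 after the length correction. On Day 4, 10 of the 36 other genes were at least 2-fold higher and 14 lower in ΔIEC mice, with a median log2 difference of -0.04, against 25.6% higher and 26.1% lower among all genes. After division by the column sum 14 were higher and 5 lower, against 40.5% and 15.2%.

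**Figure D3:**
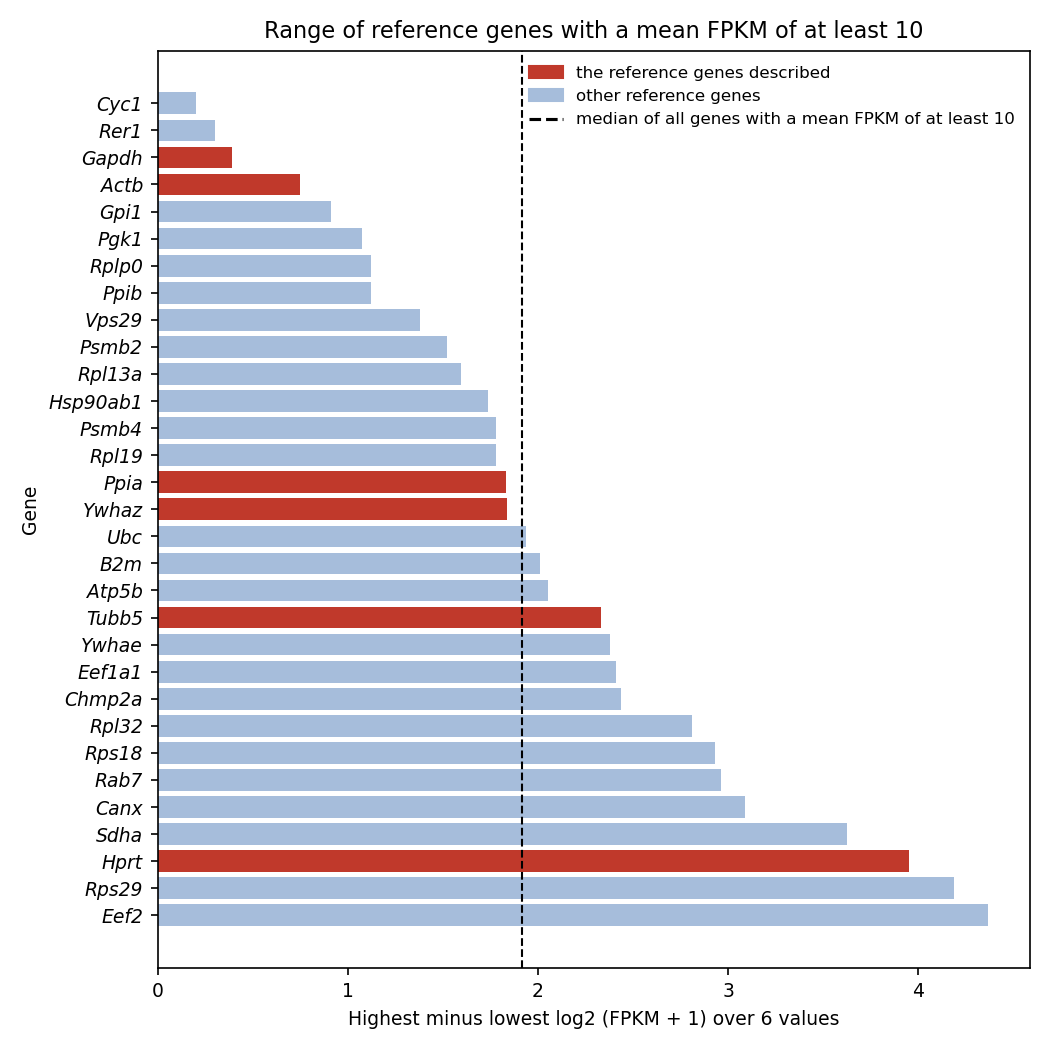
Range over the 6 pooled values, as highest minus lowest log2(FPKM + 1), of the 6 members (red) and 25 other reference genes (blue) with a mean FPKM of at least 10, with a dashed line at 1.92, the median of all 2693 genes of that level. As deposited, Cyc1, Rer1, Gapdh and Actb have the smallest ranges, an order in which Cyc1 and Rer1 come after Gapdh and Actb once columns are divided by their sums, and Hprt is the third largest, below Rps29 and Eef2.

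A ratio of 2 genes within a column does not depend on how the column was scaled. For the 7 members above 0 in all columns, the SD of the log2 ratio over the 6 values was computed for the 21 pairs, and the mean SD of a gene against the 6 others is its M value (a low M marks a gene that moves with the others). The SD of Gapdh against Actb was 0.17, the smallest of all pairs, and Actb was between 32.9 and 47.1 times Gapdh in every column. The next pairs were Gapdh with Ppia (0.70) and Actb with Ppia (0.72), and the median over the pairs was 1.33. The largest SD was that of Hprt with Ppia, at 2.81, where Ppia went from 2.45 to 147 times Hprt.

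The M values were 1.09 for Gapdh, 1.13 for Actb, 1.24 for Tubb5, 1.28 for Ywhaz, 1.51 for Ppia, 1.54 for Polr2a and 1.99 for Hprt. Gapdh and Actb were lowest and Hprt highest under the 3 alternatives run as well. M rests on which genes are compared, and a pair that moves together lowers the M of both. Hprt was 69.4% of Gapdh in controls and 139% in ΔIEC mice on Day 0. It was 6.53% and 119% on Day 4, and 6.15% and 126% on Day 11.

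**Figure D4:**
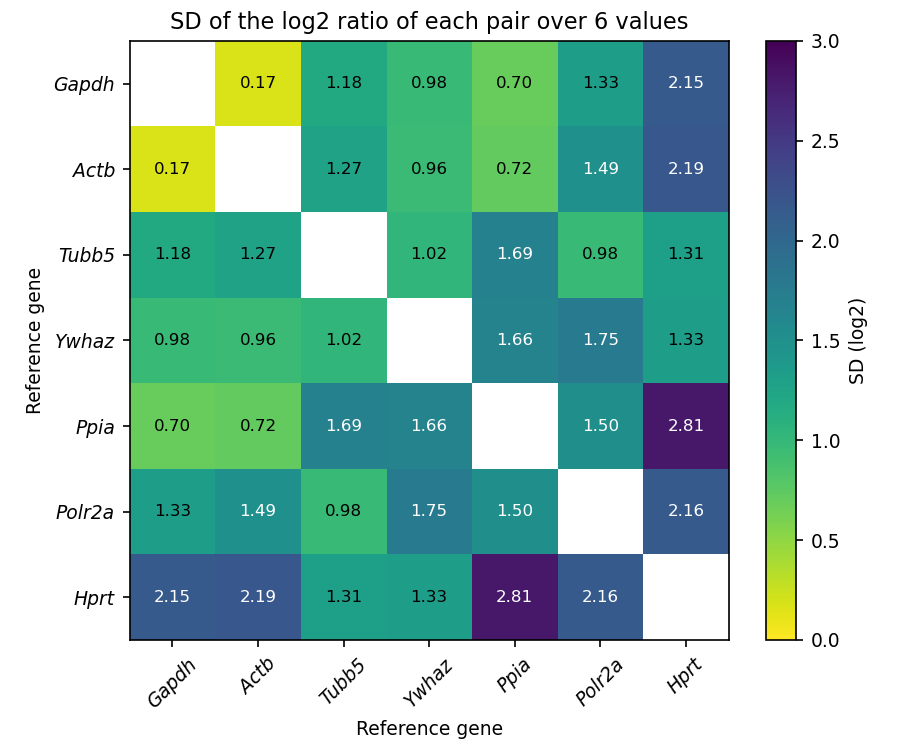
SD of the log2 ratio of each pair of 7 reference genes over the 6 pooled values (colour and printed number, Tbp left out since it was listed at 0), with genes ordered by M value on both axes. The pair Gapdh and Actb has 0.17, and every pair with Hprt has at least 1.31.

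What the choice of reference does to a genotype ratio follows directly from these values. Expressing a gene relative to Hprt in place of Gapdh lowers its ratio of ΔIEC mice to controls in these columns, by a factor of 2.00 on Day 0, of 18.3 on Day 4 and of 20.4 on Day 11. The study measured Tfeb, Il1b, Il6, Ifng and Il17 relative to Hprt, and Apoa1, Defa25 and Defa26 relative to Gapdh, by qRT-PCR on RNA not analysed here, some of it from whole colon tissue, so the values below are those of the RNA-seq only.

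Tfeb had an FPKM of 0.901 in controls and 0.185 in ΔIEC mice on Day 0, and was 4.86-fold lower in ΔIEC mice as deposited, 8.81-fold relative to Hprt and 4.39-fold relative to Gapdh. Both Tfeb values were under 1 FPKM, and with the pseudocount of 1 FPKM the log2 differences were -1.53 relative to Hprt in place of -3.14, and -0.54 relative to Gapdh in place of -2.14, under 2-fold. On Days 4 and 11 Tfeb was listed at 0 in ΔIEC mice, against 1.08 and 1.18. Apoa1, the main protein of high density lipoprotein, had 17.7 in controls on Day 0 and was listed at 0 in ΔIEC mice. On Day 4 it had 4.99 and 1.89, which is 2.64-fold lower in ΔIEC mice as deposited, 42.4-fold lower relative to Hprt and 2.32-fold relative to Gapdh. On Day 11 it was 2.80-fold lower, 46.2-fold relative to Hprt and 2.26-fold relative to Gapdh. With the pseudocount the log2 differences of Apoa1 relative to Gapdh were -0.87 on Day 4 and -0.82 on Day 11, also under 2-fold.

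The α defensins Defa25 and Defa26 were listed at 0 in both genotypes on Day 0 and in ΔIEC mice on Days 4 and 11, so no ratio can be formed. In controls, Defa25 had 64.8 on Day 4, which is 7.51 times Hprt and 0.490 times Gapdh. Of the cytokine genes, Il6, Ifng and Il17a were listed at 0 in every column, and Il1b only had a value in ΔIEC mice on Day 0 (0.352).

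Other genes followed Hprt. By the root mean square difference of log2(FPKM + 1) after each gene's mean was removed, over 6 values and among 2692 other genes with a mean FPKM of at least 10, the 5 most like it were Rab18 (0.05), Uap1 (0.08), Pgrmc1 (0.09), Tm9sf2 (0.10) and the long noncoding RNA Gm26825 (0.10). Rab18, a small GTPase, had 16.8 in controls on Day 0, 1.34 on Day 4 and 1.05 on Day 11, and 30.1, 31.2 and 29.0 in ΔIEC mice. Uap1, which makes UDP-N-acetylglucosamine, had 31.9, 2.88 and 2.80 in controls and 53.4, 49.5 and 49.6 in ΔIEC mice. On Day 4 the 5 genes were between 13.6-fold (Tm9sf2) and 23.4-fold (Rab18) higher in ΔIEC mice, against 16.1-fold for Hprt. Such a pattern, at least 4-fold lower on Day 4 than on Day 0 in controls and within 2-fold in ΔIEC mice, was shared by 168 of 2693 genes (6.24%), a count made after the values were seen. The median transcript of these genes had 2003.5 nt. Another 96 genes, with a median of 390.25 nt, were at least 4-fold higher on Day 4 in controls and within 2-fold in ΔIEC mice. With the genotypes exchanged, 21 genes were lower and 36 higher on Day 4. The median over all 2693 genes was 1288 nt.

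**Figure D5:**
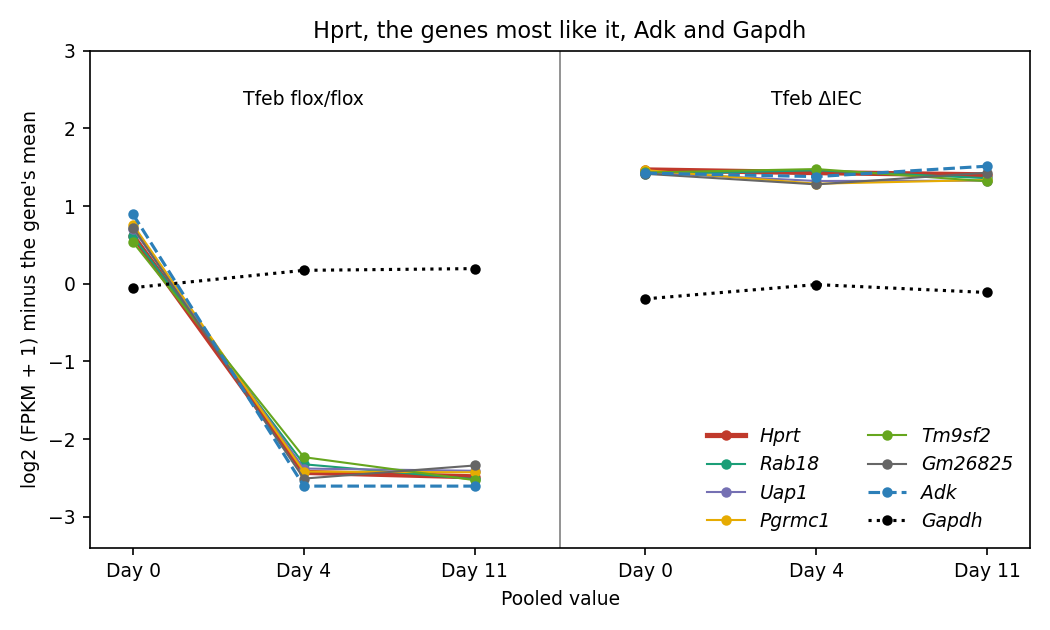
log2(FPKM + 1) minus the gene's mean over the 6 pooled values, on Days 0, 4 and 11 in controls (left) and ΔIEC mice (right), for Hprt (thick line), the 5 genes most like it, Adk (dashed) and Gapdh (dotted). The lines of Hprt, its 5 nearest genes and Adk lie low together on Days 4 and 11 in controls, while Gapdh keeps within a range of 0.39.

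Each member was also set beside the genes of its own pathway or complex, counted on Day 4 among those that reached an FPKM of 1, by a difference of at least 1 in log2(FPKM + 1). Among all genes 25.6% were higher in ΔIEC mice and 26.1% lower by this count, 33.4% and 31.2% without the pseudocount, and 40.5% and 15.2% after division by the column sum. The counts of most families changed with these settings, which were added after the values were seen. Each family list includes the member itself, and none of these counts was corrected for length.

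Of 15 genes of purine salvage and synthesis, 7 were higher in ΔIEC mice, Hprt among them, and 1 lower, with a median log2 difference of 0.99. Without the pseudocount 9 were higher and 1 lower, and after division by the column sum 9 and 0. The highest was Adk, adenosine kinase, with 5.47 in controls and 101 in ΔIEC mice on Day 4 against 72.0 and 105 on Day 0, and place 14 among the genes nearest to Hprt. The lowest was Aprt, the adenine counterpart of Hprt, with 254 and 82.6 as deposited, under 2-fold after division by the column sum.

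Of 15 glycolytic genes, 6 were higher in ΔIEC mice and 0 lower, with a median of 0.77. Without the pseudocount 7 were higher and 1 lower, and after division by the column sum 13 and 0. Hk1, a hexokinase, was the highest with 1.53 in controls and 26.2 in ΔIEC mice. Hk2 was the lowest with 8.26 and 3.85, which is 2.14-fold lower without the pseudocount. Gapdh, at -0.18, was among the 9 under the threshold.

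Of 15 actins and actin-binding proteins, 7 were higher and 4 lower, with or without the pseudocount, and 9 and 1 after division by the column sum. They ran from Tmsb4x (3658 in controls and 858 in ΔIEC mice) to Actr3 (5.53 and 42.6). Actb, at -0.16, was 1 of the 4 under the threshold, whereas the other cytoplasmic actin, Actg1, had 434 and 1663. Actg1 was picked after its values were seen. Of 8 tubulins, Tubb5 was the single one past the threshold as counted, and 4 were higher after division by the column sum. Tubb2a was the lowest with 1.52 in controls and 0.642 in ΔIEC mice, which is 2.36-fold lower without the pseudocount.

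Of the 7 genes of the Ywhaz family, 3 were higher in ΔIEC mice and 0 lower, with or without the pseudocount, and 5 were higher after division by the column sum. They ran from Ywhag (4.08 and 3.33) to Ywhae (18.4 and 92.9), another gene in use as a reference. Of 15 cyclophilins and FK506-binding proteins, 3 were higher and 8 lower, with a median of -1.04, and after division by the column sum 5 were higher and 0 lower. Ppia was the lowest, and Fkbp4, a chaperone partner, the highest with 40.9 in controls and 113 in ΔIEC mice.

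Of 10 subunits of RNA polymerase II, 0 were higher in ΔIEC mice and 6 lower, with a median of -1.21. Without the pseudocount 1 was higher and 6 lower, and after division by the column sum 2 and 3. They ran from Polr2f (185 in controls and 12.2 in ΔIEC mice), with a median transcript of 668.5 nt, to Polr2d (1.29 and 2.71), which is 2.10-fold higher without the pseudocount. Polr2a was not counted, with both values under 1. Of 10 genes of TFIID and Tbp relatives, 1 was higher and 4 lower, with a median of -0.75. Without the pseudocount 1 was higher and 5 lower, and after division by the column sum 2 and 3. Tbp was the lowest and Taf13 the highest, each with 1 of its values listed at 0, Taf13 in controls against 1.03 in ΔIEC mice.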

How the data were processed

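Epithelial cells of the colon of 12 mice were sequenced by the authors from full-length cDNA libraries (a SmartSeq2 variant) as paired-end MiSeq reads and mapped to mm10 with TopHat2 2.0.14, per the labels. The authors then ran Cuffdiff 2.1.1 for each day and deposited 3 tables with 1 FPKM value per gene and genotype, scaled within the day and combining 2 animals. The annotation is not given in the sources used here. The tables also hold the authors' log2 fold change, test statistic, p-value, q-value and significance call, none of which was used. Depth per sample is unknown, so no interval was computed.

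Groups were taken from the labels. With 1 pooled value per group no test was run, and every result is a description. Levels are FPKM as deposited, and log2 differences have a pseudocount of 1 FPKM. A difference was counted at 2-fold among genes where 1 or both values reached an FPKM of 1. No fold is given against 0. Fcgbp, whose estimate failed on Day 0, was left out. Positions, transcript lengths and shared 50-base sequences are from GENCODE M21, on the assembly of mm10, and promoters from RefSeq. The running median over transcript length used 501 genes. The members and lists were chosen with earlier results of these data known. Named genes were all members, the 5 smallest and 3 largest ranges of the other reference genes, the 5 genes most like Hprt, the genes of the study's qRT-PCR, and the lowest and highest of each family on Day 4. Other genes that the text names, such as markers, overlapping genes and near copies, Ppib, Actg1 and the genes of smallest range, fall outside this rule and were chosen after their values were seen. The alternatives were pseudocounts of 0.1 and 5 FPKM, division by the column sum, centring on the median, subtraction of the length median, a 4-fold threshold, other filters on low values and fewer days. Summing each gene with its near copies, the family counts without the pseudocount and divided by the column sum, and the range orders of other genes under other scalings were added after the values had been seen. Python 3.11.15 with numpy 2.4.6, pandas 2.3.3 and matplotlib 3.10.9 was used, and the computations were tested on simulated data.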

Additional observations from a re-analysis of the deposited data

How the results depend on the processing

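No paired analysis was possible because each group has 1 pooled value, and no replicate could be left out for the same reason. A pseudocount of 5 FPKM gave 0 reference genes 2-fold apart between genotypes on Day 0 (1 as reported), 3 on Day 4 and 3 on Day 11 (5 each), 1 between Days 0 and 4 in ΔIEC mice (4), and 4 with a range under 1 (2). The shares of all genes past the same limits were then 8.75%, 22.9%, 22.9% and 5.14%, and 38.5% had a range of at least 1. A 4-fold threshold gave 0, 2, 2 and 1 for the first 4 counts, against 5.43%, 17.7%, 17.6% and 4.29% of all genes. Subtraction of the length median gave 0 on Day 0 (22.8% of all genes), and centring on the median left 1 range under 1, that of Gapdh (74.9% of all genes at 1 or more). The target ratios relative to Gapdh that fell under 2-fold, given below, also changed. The other 42 of the 56 recomputed counts, mean M values and target ratios stayed on their side or within a factor of 1.5.

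Directions turned for small differences only. Division by the column sum gave log2 differences between genotypes of 0.64 and 0.52 for Gapdh and 0.67 and 0.69 for Actb on Days 4 and 11, and between Days 0 and 4 in controls of -0.36 and -0.37. For Hprt between Days 0 and 4 in ΔIEC mice, the -0.03 as deposited became 0.21 after that division, 0.17 after centring and 0.12 after the length correction. The length correction gave -0.19 for Tubb5 on Day 0, and Ywhaz with its near copy had 0.26 on Day 0. With a pseudocount of 1 FPKM the target ratios relative to Gapdh were -0.54 for Tfeb on Day 0, and -0.87 and -0.82 for Apoa1 on Days 4 and 11, under 2-fold. The ratios between members do not depend on scaling. Without replicates or counts, differences near 2-fold, and levels near or under 1 FPKM such as those of Polr2a, Tbp and Tfeb, are the least certain.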

Other observations

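Among all 2693 genes with a mean FPKM of at least 10, those with the smallest range were looked up, a choice made after the values were seen. As deposited, the 3 smallest were Psmd8, a proteasome regulatory subunit, with a range of 0.12, Bscl2, the lipid droplet protein seipin, with 0.15, and Creld2, a protein of the endoplasmic reticulum, with 0.16. Psmd8 had an FPKM of 43.9 in controls and 40.9 in ΔIEC mice on Day 0, 42.1 and 40.2 on Day 4, and 43.3 and 43.8 on Day 11. Next came Ssr2 (0.17), Entpd8 (0.19) and Tagln2 (0.19), and Cyc1 held place 7. This order depends on the scaling. After division by the column sum Psmd8 had a range of 0.86 (place 284), Bscl2 0.94 (place 351) and Creld2 0.81 (place 241), against 0.64 (place 131) for Gapdh. Centred on the median, Creld2 held place 1 with 0.15, Bscl2 place 21 and Psmd8 place 44. The smallest of many ranges are small in part by selection, and they were not checked in other samples here.

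The processed pseudogene Gm4202 was listed at 15.0 times the level of Ywhaz in controls on Day 0, and was 6.55-fold higher in ΔIEC mice than in controls on Day 4, against 3.83-fold for Ywhaz itself. Its transcript has 733 nt, against a median of 2285 nt for Ywhaz.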
